A study of Mus musculus with 6 samples.

Results

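The hypoxia-inducible genes described here are Bnip3, Ndrg1, Egln3, Car9, Adm, Ankrd37, Pdk1, P4ha1, Cited2 and Hif1a, 10 of the 20140 genes listed in a table of bulk liver RNA. They were looked up by symbol and were chosen by their counts in the metastatic livers of this same table, where hypoxia genes stood higher than in sham livers. Their values in the metastatic livers are therefore given as a description, without a test. The premetastatic livers did not enter that choice, so the comparison of premetastatic with sham livers was tested, although the sham livers served both. Of the 10 genes, 9 passed the filter on low counts and were among the 16370 genes tested, and Car9 did not pass it.

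RNA was taken from whole livers of mice on day 21, with 2 livers in each of 3 groups. The labels call the groups intra-C, intra-S and control and add CT26, a mouse colon carcinoma line of BALB/c origin, or PBS. Per the study's methods, CT26 cells were placed in the cecum in the intra-C mice (premetastatic phase) and injected into the spleen in the intra-S mice (liver metastasis), while sham mice were operated on and received PBS. The labels give neither strain nor age of these livers, the study describes both CT26 models as BALB/c mice, the methods give an age of 6 to 10 weeks, and no group carries an engineered allele. The CT26 line is mouse, so that its transcripts and those of the host map to the same genes, and the route of inoculation and the tumor load of the liver change together between the groups. Every value is a sum over all liver cells, so that fewer cells of a type and less RNA per cell cannot be told apart.

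Cells sense oxygen through prolyl hydroxylases, which mark the alpha subunits of the hypoxia-inducible factors (HIF) for destruction by the VHL ubiquitin ligase while oxygen is present. When oxygen is short the subunits persist, pair with ARNT and bind short DNA motifs with the core ACGTG or GCGTG near genes for glycolysis, mitophagy, vessel growth and collagen maturation. The hydroxylase gene Egln3 and the coactivator competitor Cited2 are themselves targets and restrain the factors. The liver has an oxygen gradient along each lobule, from the portal tract to the central vein.

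The 6 libraries held between 32838321 and 43368309 counts, so that 3 counts, the limit that a count of 0 allows, correspond to 0.0679 to 0.0928 CPM, the counts scaled to a common library total. Levels of 1 gene across livers are given in CPM on TMM-scaled totals, and levels of different genes are compared only in TPM, which corrects for length. The 6 hepatocyte markers, Alb among them, summed to between 104951 CPM (intra-C liver 2) and 180396 CPM (intra-S liver 1). Of these markers, 4 were higher in intra-S liver 1 than in intra-S liver 2. Ass1 was at 1.21 and 0.340 times the sham mean in intra-S livers 1 and 2, and Cps1 at 1.65 and 0.644 times. Between the intra-S livers, 8.05% of all tested genes differed more than 4-fold, against 3.05% between the intra-C livers and 1.55% between the sham livers. In intra-S liver 1 several hypoxia genes stood far above every other liver, and the values of each intra-S liver or the fit without liver 1 are given beside the main results. No tumor load or collection record of this liver is given in the sources used here, and whether it is what its label says was not tested.

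The mitophagy receptor Bnip3 (chr7:138890836-138909506, GRCm38.p6) shows the pattern. Sham livers gave 239 and 281 CPM, intra-C livers 229 and 225 CPM, intra-S liver 1 2316 CPM and intra-S liver 2 gave 251 CPM. The second intra-S liver lay between the sham livers, and the first had 9.25 times its level. Bnip3 was also the most abundant of the 10 genes per length, at 307 and 360 TPM in the sham livers and 2331 TPM in intra-S liver 1. Its exons share 504 bases with the antisense gene Gm45507, no values of which are used here.

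Ndrg1 (chr15:66929318-66969641), a stress-responsive gene linked to differentiation and suppression of metastasis, had 2.71 and 3.17 CPM in sham livers, 8.63 and 12.0 CPM in intra-C livers, 276 CPM in intra-S liver 1 and 13.2 CPM in intra-S liver 2. All 4 livers of tumor-bearing mice lay above both sham livers, and intra-S liver 1 had 20.96 times the level of intra-S liver 2. Relative to the sham mean, Ndrg1 was 93.8 times as high in intra-S liver 1 and 4.47 times as high in intra-S liver 2. Exons of Ndrg1 share 419 bases with Gm17035 and 137 bases with Gm2895 on the opposite strand, also without values here.

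Ankrd37 (chr8:45996908-46000414), a small ankyrin-repeat gene known as a HIF target, had 0.665 and 0.362 CPM in sham livers, 0.153 and 0.402 CPM in intra-C livers, 24.7 CPM in intra-S liver 1 and 1.96 CPM in intra-S liver 2. Both intra-S livers lay above the other 4. Its exons share 349 bases with Lrp2bp and 57 bases with Ufsp2 on the opposite strand, and whether the counting used strand is not given in the sources used here. Lrp2bp had 1.22 and 0.319 CPM and Ufsp2 44.4 and 37.8 CPM in intra-S livers.

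The vasodilator peptide gene Adm (chr7:110627657-110629820) had 0.591 and 0.498 CPM in sham livers, 1.91 and 1.05 CPM in intra-C livers, 19.1 CPM in intra-S liver 1 and 1.05 CPM in intra-S liver 2. Intra-S liver 2 was at the lower of the intra-C levels. Car9 (chr4:43507026-43513729), the tumor-associated carbonic anhydrase of the cell surface, was close to the counting limit, with 4 and 0 counts in sham livers, 11 and 0 counts in intra-C livers and 23 and 10 counts in intra-S livers. No direction is read from these Car9 counts, and its exons share 214 bases with the antisense gene Gm12454.

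Both feedback genes were high in intra-S liver 1 and low in intra-S liver 2. Cited2 (chr10:17723228-17725674), whose product competes with HIF for the coactivators CBP and p300, had 16.5 and 16.7 CPM in sham livers, 10.6 and 8.45 CPM in intra-C livers, 231 CPM in intra-S liver 1 and 6.21 CPM in intra-S liver 2. Its 37.2-fold distance between the intra-S livers ranked 12 among the 16370 genes, ordered by how far intra-S liver 1 exceeded intra-S liver 2, and intra-S liver 2 had the lowest level of all 6 livers. Egln3 (chr12:54178981-54203874), an oxygen-sensing prolyl hydroxylase, had 6.16 and 10.9 CPM in sham livers, 4.13 and 2.01 CPM in intra-C livers, 32.0 CPM in intra-S liver 1 and 4.86 CPM in intra-S liver 2. Without intra-S liver 1, every liver of a tumor-bearing mouse was below both sham livers for Cited2 and Egln3.

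Pdk1 (chr2:71873215-71903858) encodes a kinase that keeps pyruvate out of the mitochondrial citrate cycle. It had 58.1 and 58.8 CPM in sham livers, 34.4 and 28.2 CPM in intra-C livers, 64.5 CPM in intra-S liver 1 and 26.4 CPM in intra-S liver 2. Intra-S liver 1 thus stood just above the sham livers, and the other livers of tumor-bearing mice stood below them. P4ha1 (chr10:59323197-59373304), the catalytic subunit of collagen prolyl 4-hydroxylase, had 23.9 and 17.0 CPM in sham livers, 35.2 and 31.7 CPM in intra-C livers and 26.5 and 29.5 CPM in intra-S livers. It was the only one of the 9 tested genes that was lower in intra-S liver 1 than in intra-S liver 2, at 0.900 times the level.

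Hif1a (chr12:73901324-73947554), the oxygen-regulated subunit itself, differed little between the livers. It had 30.7 and 37.1 CPM in sham livers, 47.2 and 41.5 CPM in intra-C livers, 49.4 CPM in intra-S liver 1 and 37.5 CPM in intra-S liver 2. The HIF-1 alpha protein is known to be set mainly by its stability, which RNA does not measure. Hif1a shares 330 exonic bases with the antisense gene Gm15283, which was between 0.226 and 2.04 CPM.

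**Figure D1:**
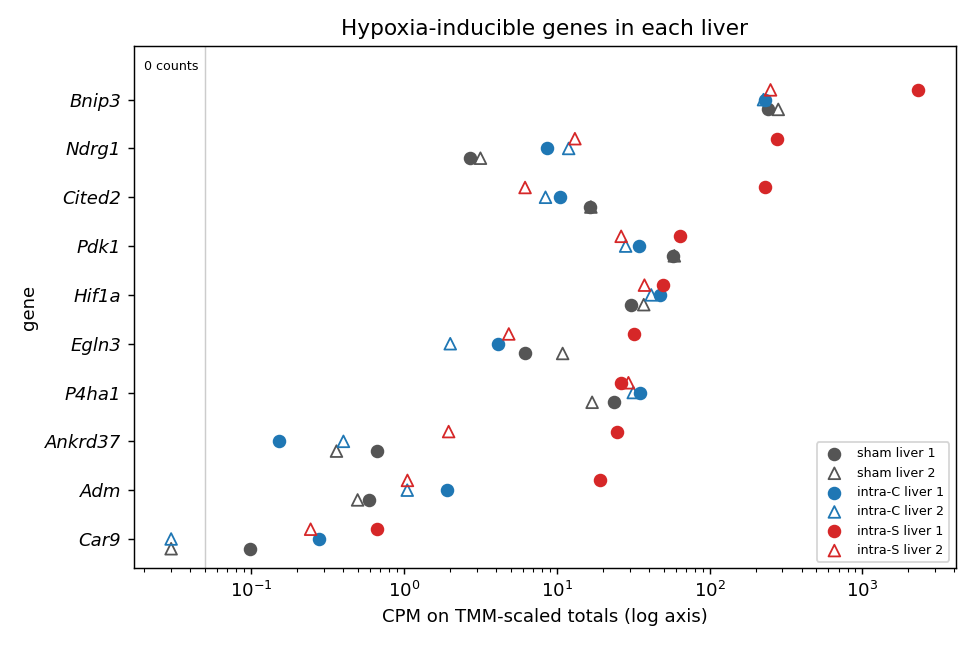
Levels of the 10 hypoxia-inducible genes in each of the 6 livers, in CPM on a log axis, with 1 marker per liver (circles for liver 1, triangles for liver 2), 1 colour per group and livers with 0 counts set at the left edge. Intra-S liver 1 is the highest liver for 9 of the 10 genes, narrowly so for Hif1a, and P4ha1 is the exception. The intra-S livers chose the genes and Car9 is close to the counting limit, so nothing is read from this count.

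Per length, the order in the sham livers was Bnip3, then Pdk1 (20.2 and 20.4 TPM), Cited2 (18.9 and 19.1 TPM), Hif1a (13.8 and 16.7 TPM), P4ha1 (12.8 and 9.08 TPM), Egln3 (5.18 and 9.17 TPM), Ndrg1 (2.11 and 2.46 TPM), Adm, Ankrd37 and Car9, the last 3 below 1 TPM. The ranges of P4ha1 and Egln3 overlapped, and those of the other neighbours did not, with 2 livers behind each range. In intra-S liver 1 Cited2 (207 TPM) and Ndrg1 (169 TPM) stood next after Bnip3 and before Adm (24.3 TPM), Egln3 (21.15 TPM) and Ankrd37 (19.7 TPM).

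The distance between the intra-S livers ran in 1 order through the group. Cited2, Ndrg1, Adm (18.1-fold), Ankrd37 (12.6-fold), Bnip3 and Egln3 (6.59-fold) differed more than 4-fold, 6 of the 9 tested genes, all higher in intra-S liver 1. Over all tested genes, 3.13% were more than 4-fold higher in intra-S liver 1, and since the intra-S livers chose the genes, nothing is read from the comparison. Pdk1 (2.44-fold) and Hif1a (1.32-fold) were under that limit. Between the sham livers and between the intra-C livers, 0 of the 9 genes differed more than 4-fold.

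**Figure D2:**
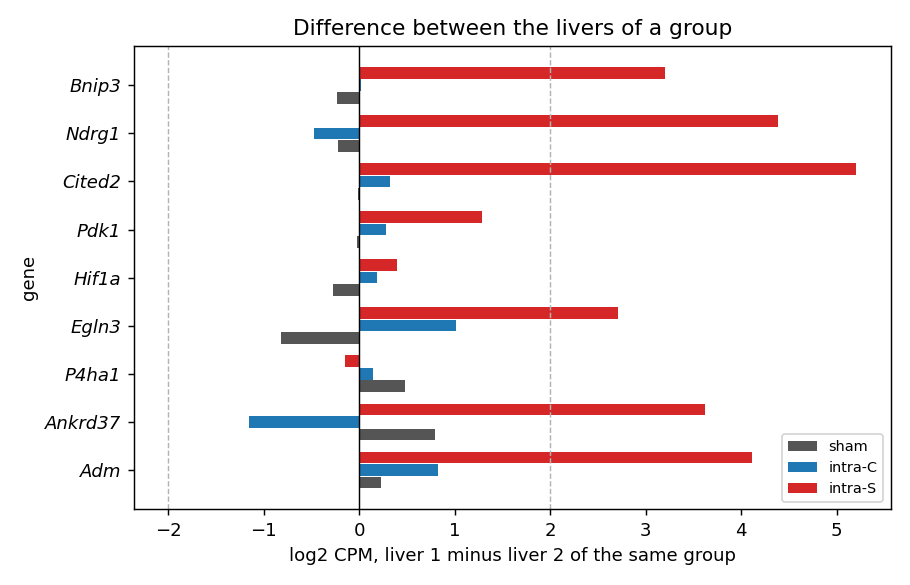
Difference between the 2 livers of each group, as log2 CPM of liver 1 minus liver 2, in 1 bar per group for the 9 tested hypoxia-inducible genes, with dashed lines at 4-fold. The sham and intra-C bars end inside the dashed lines, while 6 intra-S bars pass the upper one.

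Compared with the sham group as a whole, the intra-S group had the following log2 fold changes, each given with the standard error of the fit. They were 5.62 ± 1.33 for Ndrg1, 4.69 ± 1.21 for Ankrd37, 4.20 ± 1.25 for Adm, 2.83 ± 1.31 for Cited2, 2.30 ± 0.88 for Bnip3 and 1.11 ± 0.83 for Egln3. The remaining 3 were close to 0, at 0.45 ± 0.22 for P4ha1, 0.36 ± 0.22 for Hif1a and -0.36 ± 0.40 for Pdk1. The median of the 9 was 2.30, beside 0.04 over all tested genes, and 10.7% of all tested genes were called in this comparison by edgeR's quasi-likelihood test at an adjusted p under 0.05.

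With intra-S liver 2 alone against the sham livers, the median of the 9 genes was 0.15 and the order changed. Ndrg1 was at 2.16, Ankrd37 at 1.93, Adm at 0.96, P4ha1 at 0.53 and Hif1a at 0.15 on the log2 scale. Bnip3 was at -0.05, Egln3 at -0.81, Pdk1 at -1.14 and Cited2 at -1.42. The positive group values of Bnip3, Egln3 and Cited2 thus came from intra-S liver 1. The livers of both groups did not overlap for Ndrg1, Adm, Ankrd37, P4ha1 and Hif1a, 5 of 9 genes, all higher in intra-S, where 30.4% of all tested genes separated upward and 30% downward.

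**Figure D3:**
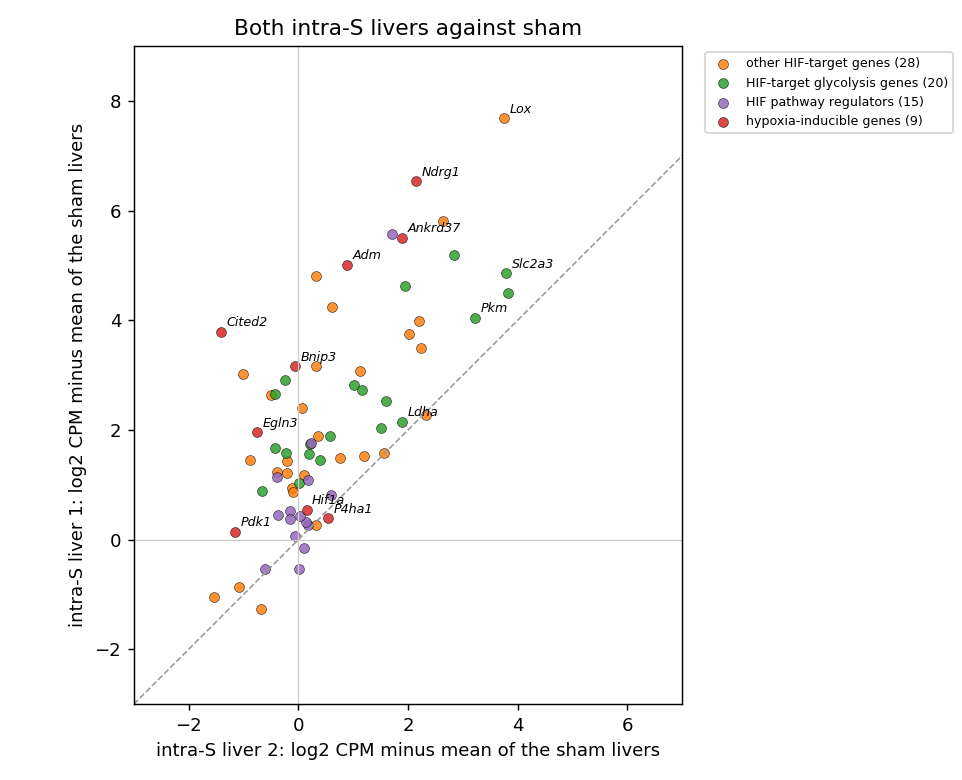
For the tested hypoxia-inducible genes and other genes of the HIF lists, log2 CPM minus the mean of the sham livers, in intra-S liver 2 (horizontal) against intra-S liver 1 (vertical), with 1 point per gene, coloured by list, and a dashed line of equal difference. Cited2, Ndrg1, Adm, Ankrd37, Bnip3 and Egln3 lie above that line by more than 4-fold, while P4ha1 and Hif1a lie near it.

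Between intra-S and intra-C, the median log2 fold change of the 9 genes was 2.58 with both intra-S livers and -0.18 without intra-S liver 1, beside 0.03 over all tested genes with both. edgeR called 0 of the 16370 genes in this comparison (0%), with 2193 at an unadjusted p under 0.05, and DESeq2 called 527 (3.22%). limma on log2(TPM + 1) called 0, with 2266 at an unadjusted p under 0.05. Bnip3, Ndrg1, Egln3 and Ankrd37 were higher in both intra-S livers than in both intra-C livers, 4 of 9 genes where 21.9% of all tested genes separated upward, and P4ha1 was lower in both, where 21.5% separated downward.

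The tested comparison, intra-C against sham, asked whether the hypoxia genes already differed in livers before metastases. The 9 genes went both ways. Ndrg1, Adm, P4ha1 and Hif1a were higher in both intra-C livers than in both sham livers, and Bnip3, Egln3, Pdk1 and Cited2 were lower in both, while Ankrd37 overlapped. Of all tested genes, 34.4% separated upward and 34% downward in the same way, so that 4 and 4 of 9 are near the background.

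In edgeR's quasi-likelihood test over all 6 livers, 0 of the 9 genes were called between intra-C and sham, where 7.3% of all tested genes were called. At an unadjusted p under 0.05 there was 1 of the 9, P4ha1, where 4428 of all 16370 tested genes were. DESeq2 also called 0 (17.2% of all tested genes), as did limma on log2(TPM + 1) (8.51%). The log2 fold changes were 1.81 ± 1.15 for Ndrg1 (SE, edgeR adjusted p = 0.362), 1.44 ± 1.19 for Adm (0.482), 0.71 ± 0.22 for P4ha1 (0.107) and 0.39 ± 0.22 for Hif1a (0.315). On the other side they were -1.47 ± 0.85 for Egln3 (0.317), -0.90 ± 0.40 for Pdk1 (0.210), -0.91 ± 1.28 for Ankrd37 (0.692), -0.81 ± 1.24 for Cited2 (0.720) and -0.20 ± 0.84 for Bnip3 (0.908). The median was -0.20, beside 0.01 over all tested genes.

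The spread in this fit is pooled over the groups, and without intra-S liver 1 the standard errors of the 9 genes were smaller. In that fit, 5 of the 9 genes were called between intra-C and sham, where 26.5% of all tested genes were called, 14.5% higher and 12% lower. Ndrg1 (log2 fold change 1.81 ± 0.24, edgeR adjusted p = 0.00252) and P4ha1 (0.71 ± 0.19, 0.0315) were higher. Pdk1 (-0.89 ± 0.15, 0.00600), Cited2 (-0.80 ± 0.18, 0.0168) and Egln3 (-1.46 ± 0.41, 0.0383) were lower. Adm (0.0856), Hif1a (0.103), Bnip3 (0.329) and Ankrd37 (0.404) did not pass with edgeR's adjusted p. The fold changes themselves were within 0.01 of those with all livers, and the fit on the sham and intra-C livers alone, with 30.5% of all tested genes called, called the same 5 genes.

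**Figure D4:**
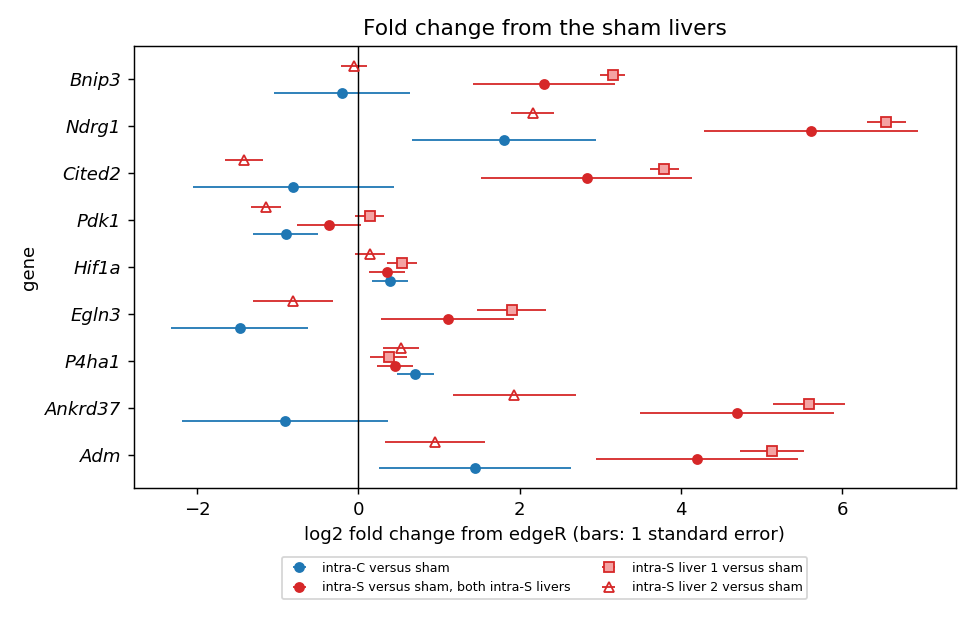
Log2 fold change against sham of the 9 tested hypoxia-inducible genes from edgeR, with bars of 1 standard error, for intra-C, for both intra-S livers (filled circles), for intra-S liver 1 alone (squares) and for intra-S liver 2 alone (triangles). Bnip3, Egln3 and Cited2 lie above 0 with both intra-S livers and below 0 with intra-S liver 2 alone.

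Promoter windows of the genes were searched for both HIF cores because the members are grouped as HIF targets. RefSeq (GRCm38.p6, the same assembly as mm10) gave windows of 250 bases before to 50 bases after a transcription start for 9 of the 10 genes, and Ndrg1 had none. Either core, ACGTG or GCGTG on either strand, was present in 9 of 9 genes, against 60.3% of 14223 counted genes with a window and 43.8% of all 32851 windows. ACGTG was in 7 of 9 genes (77.8%), against 26.8% of counted genes and 19.6% of all windows. GCGTG was in 5 of 9 genes (55.6%), against 48.6% and 32.4%. The other genes of the HIF lists also stood above the counted genes, with either core in 52 of 64 (81.2%), ACGTG in 46.9% and GCGTG in 68.8%, the last above the share of the hypoxia-inducible genes. A match is a description of letters, not of a bound site, and the palindrome CACGTG, in 7.15% of windows, counts on both strands. The windows are GC-rich, with 54.7% to 71.7% G or C in those of the 6 genes printed here.

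The stretches around a core are printed for the 5 genes with a window that differed more than 4-fold between the intra-S livers, Bnip3 (chr7:138909585-138909639, minus strand), Cited2 (chr10:17723050-17723104, plus), Adm (chr7:110627578-110627632, plus), Ankrd37 (chr8:45999976-46000030, minus) and Egln3 (chr12:54204074-54204124, minus). Hif1a (chr12:73907707-73907761, plus) is printed as the contrast, a gene with ACGTG matches in its window and little difference between livers. Capitals mark the core matches, read 5′ to 3′ on the strand of the gene, and a core on the opposite strand appears as CACGT or CACGC.
Bnip3: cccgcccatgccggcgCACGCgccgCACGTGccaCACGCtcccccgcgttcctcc
Cited2: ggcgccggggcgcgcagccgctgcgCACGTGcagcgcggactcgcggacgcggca
Adm: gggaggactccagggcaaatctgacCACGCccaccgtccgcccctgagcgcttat
Ankrd37: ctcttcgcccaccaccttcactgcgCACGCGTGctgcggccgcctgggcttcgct
Egln3: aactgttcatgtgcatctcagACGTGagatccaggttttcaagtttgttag
Hif1a: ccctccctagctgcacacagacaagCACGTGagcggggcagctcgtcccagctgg

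The centres of the matches in capitals used to place these stretches lay 106 bases before the start in Bnip3, 151 in Cited2, 52 in Adm, 153 in Ankrd37, 227 in Egln3 and 133 in Hif1a. None of the 6 stretches overlaps an exon in the GENCODE M21 annotation. The stretches of Ankrd37 and Hif1a lie inside the span of the gene, because their RefSeq windows follow a start downstream of the outermost one. Bnip3 had 5 matches in its window, Ankrd37 4, Hif1a 3, P4ha1 3, and Egln3 and Car9 1 each.

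**Figure D5:**
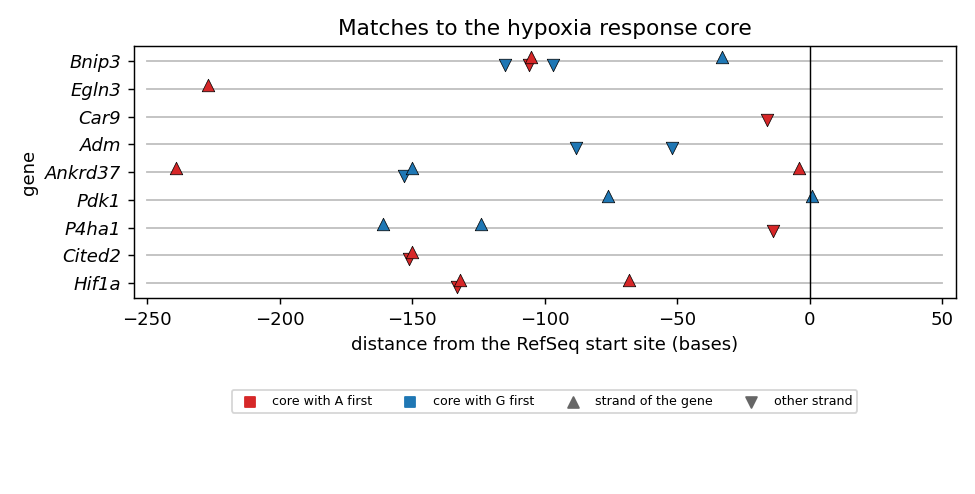
Positions of ACGTG and GCGTG matches in the promoter windows of 9 hypoxia-inducible genes, in bases from the transcription start (horizontal), with 1 row per gene. Red marks the core ACGTG and blue GCGTG, upward triangles lie on the strand of the gene and downward ones on the other strand, and each of the 9 genes has at least 1 match.

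Paralogs of the 10 genes were listed beside them. Of 19 paralogs, 16 were in the table and 14 were tested. Ndrg2, a relative of Ndrg1 that is abundant in liver, went the other way, at 1138 and 1258 CPM in sham, 563 and 627 CPM in intra-C and 477 and 398 CPM in intra-S livers. It fell by 1.01 ± 0.21 on the log2 scale in intra-C (edgeR adjusted p = 0.0434) and by 1.45 ± 0.22 in intra-S (0.0153; by 1.58 without intra-S liver 1), the only paralog called in either comparison with all livers, where 2.38% and 3.95% of all tested genes were called lower. Of 17 fits, 12 called Ndrg2 in each comparison, but the fit on sham and intra-S livers alone (2.48% of all tested genes called) did not call it in intra-S, and the fit with the replicate number as a block did not call it in intra-C. Ndrg3 was at 15.3 and 14.3 CPM in sham and between 9.10 and 12.3 CPM in livers of tumor-bearing mice.

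Some other paralogs shared the distance between the intra-S livers. Of the 14 tested, 6 were more than 4-fold higher in intra-S liver 1, where 3.13% of all tested genes were. Pdk3 did not share it, at 9.54 and 10.7 times the sham mean in intra-S livers 1 and 2, although its sham livers differed 10.9-fold. The mitophagy receptor Bnip3l was at 57.5 to 70.3 CPM in 5 livers and 317 CPM in intra-S liver 1. P4ha2, a collagen prolyl hydroxylase subunit, was at 3.03 to 6.65 CPM in 5 livers and 70.3 CPM in intra-S liver 1, unlike P4ha1. Among the oxygen sensors, Egln1 was at 65.0 CPM in intra-S liver 1 and 17.5 to 30.01 CPM elsewhere, while Egln2, which is not known as a strong HIF target, stayed between 46.9 and 67.5 CPM in all 6 livers. The pyruvate dehydrogenase kinase Pdk2 followed Pdk1, with 86.3 and 92.4 CPM in sham, 35.4 and 27.0 CPM in intra-C, 113 CPM in intra-S liver 1 and 30.6 CPM in intra-S liver 2. Pdk4, a fasting-induced kinase, had 52.8 and 14.9 CPM in sham, 58.1 and 85.4 CPM in intra-C and 116 and 19.2 CPM in intra-S livers, so that the intra-S livers overlapped both other groups. The carbonic anhydrase Car14 had 17.0 and 15.8 CPM in sham, 5.42 and 2.48 CPM in intra-C, 65.9 CPM in intra-S liver 1 and 6.11 CPM in intra-S liver 2.

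Of the genes that regulate HIF, 15 besides the hypoxia-inducible genes were tested, and edgeR called 0 in either comparison with sham. At an unadjusted p under 0.05, edgeR had 4 of the 15 in each comparison. At that limit it had 4428 of the 16370 tested genes in intra-C and 4949 in intra-S. DESeq2 called 1 in intra-C and 2 in intra-S (21.6% of all tested genes). With limma on log2(TPM + 1), 0 were called in both (13.7% of all tested genes in intra-S). The median log2 fold change of the 15 was 0.24 in intra-C and 0.22 in intra-S, and 0.028 in intra-S without intra-S liver 1. Epas1, the other main oxygen-regulated alpha subunit, was at 94.8 and 86.9 CPM in sham, 159 and 147 CPM in intra-C and 160.4 and 137 CPM in intra-S livers, higher in all 4 livers of tumor-bearing mice, with a log2 fold change of 0.75 ± 0.20 in intra-C (edgeR adjusted p = 0.0712) and 0.71 ± 0.20 in intra-S (0.0683). Without intra-S liver 1 the intra-S value was 0.59 ± 0.16 (edgeR adjusted p = 0.0423). Arnt, the common partner subunit, lay between 22.9 and 38.7 CPM, and Vhl, the substrate receptor of the ligase, between 7.92 and 18.9 CPM with its highest value in intra-S liver 1. In the edgeR fit on the sham and intra-C livers alone, 8 of the 15 were called, where 30.5% of all tested genes were.

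Glycolysis genes that HIF is known to drive were listed next. Of 20 tested, 3 rose in intra-C (Ldha, Pkm and Slc2a3) and 8 rose in intra-S (Slc16a3, Slc2a3, Hk2, Pfkp, Pkm, Aldoa, Hk1 and Ldha), and none fell in either. Over all tested genes, 4.92% were called higher in intra-C and 6.78% in intra-S. The counts depended on the fit, with 7 and 13 called higher by DESeq2 and 2 and 4 by limma on log2(TPM + 1). The edgeR fits on the 2 groups alone called 9 higher and 3 lower in intra-C (30.5% of all tested genes called) and 3 higher in intra-S (2.48%). The median log2 fold change was 0.06 in intra-C and 1.94 in intra-S, and 0.75 in intra-S without intra-S liver 1. Ldha, the enzyme that turns pyruvate into lactate, was at 421 and 461 CPM in sham, 1058 and 1242 CPM in intra-C and 1962 and 1634 CPM in intra-S livers, a log2 fold change of 1.38 ± 0.22 (edgeR adjusted p = 0.0232) and 2.03 ± 0.23 (0.00782). Pkm, the pyruvate kinase gene of non-hepatocyte tissues, had 10.003 and 11.4 CPM in sham, 32.0 and 47.9 CPM in intra-C and 177 and 99.7 CPM in intra-S livers (log2 fold change 1.90 ± 0.35, edgeR adjusted p = 0.0315, and 3.69 ± 0.37, 0.00614). The groups did not overlap for Ldha and Pkm, and both intra-S livers carried the difference. Without intra-S liver 1, the intra-S values were 1.89 ± 0.15 for Ldha and 3.22 ± 0.24 for Pkm, and the same 8 genes were called higher, where 9.58% of all tested genes were, while Pgam1 was called lower, where 6.93% were.

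Slc2a1, the glucose transporter best known as a HIF target, had the pattern of Bnip3 instead, at 5.57 to 8.08 CPM in 5 livers and 59.0 CPM in intra-S liver 1. Pgk1, an ATP-producing glycolytic kinase, was at 234 to 283 CPM in 5 livers and 813 CPM in intra-S liver 1. All 20 glycolysis genes were higher in intra-S liver 1 than in intra-S liver 2, where 48.4% of all tested genes were.

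Among the other HIF targets, 29 were tested. In intra-C edgeR called 0, with 6 at an unadjusted p under 0.05, where 4428 of the 16370 tested genes were. DESeq2 called 3 there and limma on log2(TPM + 1) called 1. In intra-S 6 rose, where 6.78% of all tested genes did, and 1 fell (Zfp395), where 3.95% did. The median log2 fold change was 0.44 in intra-C and 1.67 in intra-S, and 0.33 in intra-S without intra-S liver 1, where 30 genes passed the filter. The genes that rose included Lox, Loxl2, Plod2, Hmox1 and Cxcr4, of which Lox, Loxl2 and Plod2 encode enzymes that crosslink or modify collagen. All 6 were also called without intra-S liver 1, where Flt1, a receptor of Vegfa, was called higher as well (log2 fold change 1.13, edgeR adjusted p = 0.0205), giving 7 higher (9.58% of all tested genes). In that fit Vegfa (log2 fold change -0.87, edgeR adjusted p = 0.0387) and Angptl4 (-1.09, 0.0207) were called lower beside Zfp395 (6.93% of all tested genes). The fit on the sham and intra-S livers alone called 0 of the 29 (2.48% of all tested genes called). It had 15 at an unadjusted p under 0.05, where 4106 of its 15794 tested genes were. Hmox1, which degrades heme, had 11.9 and 11.7 CPM in sham, 72.0 and 56.4 CPM in intra-C and 189 and 54.6 CPM in intra-S livers.

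Vegfa, the vessel growth factor, was at 154 and 132 CPM in sham, 109 and 82.1 CPM in intra-C, 391 CPM in intra-S liver 1 and 77.9 CPM in intra-S liver 2, the same order as Cited2 and Pdk1. Insig2, a regulator of sterol synthesis, stood at 118 to 528 CPM in 5 livers and 3961 CPM in intra-S liver 1. Epo, the erythropoietin gene, had 0 counts in the sham and intra-C livers, 0.846 CPM in intra-S liver 1 and 0.0981 CPM in intra-S liver 2, and was not tested.

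Markers of other cells also differed between the livers. The 8 neutrophil markers summed to 2.19 and 3.69 CPM in sham, 278 and 627 CPM in intra-C and 1014 and 422 CPM in intra-S livers, with 7 of the 8 higher in intra-S liver 1 than in intra-S liver 2, and Camp, Mpo and Elane were at 0 in both sham livers. The 5 endothelial markers summed to 55.04 and 56.9 CPM in sham, 152 and 164 CPM in intra-C and 298 and 130 CPM in intra-S livers, with 4 of the 5 higher in intra-S liver 1. The 5 erythroid markers were all higher in intra-S liver 1, with sums of 205 and 362 CPM in sham, 372 and 235 CPM in intra-C, and 1529.98 and 1076 CPM in intra-S livers. The 4 proliferation markers summed to 11.9 and 6.68 CPM in sham, 23.5 and 31.7 CPM in intra-C and 70.2 and 58.6 CPM in intra-S livers, but 2 of the 4, Top2a and Ccnb1, were lower in intra-S liver 1 than in intra-S liver 2.

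The 6 monocyte and macrophage markers summed to less in intra-S liver 1 than in intra-S liver 2, with 1 of the 6, Cd68, slightly higher in liver 1. The sums were 131 and 137 CPM in sham, 515 and 718 CPM in intra-C and 411 and 678 CPM in intra-S. The 6 fibroblast and stellate markers summed to 199 and 184 CPM in sham, 226 and 216 CPM in intra-C and 354 and 398 CPM in intra-S livers, and the 6 epithelial markers to 201 and 237 CPM in sham, 254 and 228 CPM in intra-C and 541 and 336 CPM in intra-S livers. Krt19, Krt7 and Epcam, which would mark carcinoma or bile duct cells, were each below 1 CPM. The others were higher in intra-S than in sham, with log2 fold changes of 1.21 for Krt18, 2.12 for Sox9 and 0.85 for Krt8. No carcinoma cell content is read from these 6 markers. The part of all these cell types in the values of the hypoxia-inducible genes was not tested.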

How the data were processed

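The deposited tables hold whole liver RNA of 6 mice. Per the labels, polyadenylated RNA was sequenced and, per the submitters' processing notes, aligned to mm10 with HISAT2 2.1.0 and counted with featureCounts (Subread 2.0.6). The annotation and strand setting are not given in the sources used here. The authors deposited raw counts and, separately, TPM values scaled by gene length. The counts were tested with edgeR 4.0.16 (quasi-likelihood, TMM, filterByExpr with a minimum of 10, 1 fit over all livers, Benjamini-Hochberg over 16370 genes, adjusted p under 0.05) in R 4.3.3. Standard errors come from that fit. The p-values measure the spread between the 2 livers of a group, pooled over all groups. The distance between the intra-S livers thus enters every comparison of that fit.

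The hypoxia-inducible genes and the lists were chosen with earlier results of these data known. Named were all 10 members, their paralogs, up to 4 called genes a direction per list, and 8 genes in any case. Not every paralog is described. Alternatives were DESeq2 1.42.0, limma 3.58.1 on log2(TPM + 1) and log2(TPM + 0.1), other filters and scalings, only the 2 groups compared, a replicate block and each liver left out. Promoter windows are from RefSeq (GRCm38.p6). Some list genes are not reported here.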

Additional observations from a re-analysis of the deposited data

How the results depend on the processing

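The counts of genes called by edgeR's quasi-likelihood test over all livers were, for intra-C versus sham and then intra-S versus sham, 0 and 0 regulators, 3 and 8 glycolysis genes, 0 and 7 other HIF targets and 1 and 1 paralogs, and 0 in each of these lists between intra-S and intra-C. The hypoxia-inducible genes had 0 calls in intra-C, and in comparisons with intra-S livers, which chose them, no calls are counted. DESeq2 called 1 and 2 regulators, 7 and 13 glycolysis genes, 3 and 16 other targets and 3 and 7 paralogs, where it called 17.2% and 21.6% of all genes, and between intra-S and intra-C 5, 6 and 3 of the last 3 lists (3.22% of all genes). With only the 2 groups compared, intra-C had 5 calls among the hypoxia-inducible genes, 8 regulators, 12 glycolysis genes, 11 other targets and 7 paralogs (30.5% of all genes), and intra-S had 0 regulators, 3 glycolysis genes, 0 other targets and 0 paralogs (2.48%). limma on log2(TPM + 1) called 4 glycolysis genes, 4 other targets and 2 paralogs in intra-S (13.7%) and 2, 1 and 1 of these in intra-C (8.51%), and on log2(TPM + 0.1) 5, 6 and 2 in intra-S (13.9%) and 3, 1 and 1 in intra-C (9.03%), with 0 regulators in each. Library size without TMM (8.37%), all listed genes unfiltered (6.26%) and a minimum of 10 counts required of each liver (9.04%) each gave 2 other targets in intra-C in place of 0.

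Leaving out each liver in turn, edgeR called 0 to 26.5% of all genes in intra-C, 0 to 32.7% in intra-S and 0 to 16.5% between them, and 0 to 6 hypoxia-inducible genes in intra-C. In the same order the regulators ranged over 0 to 8, 0 to 7 and 0 to 5, the glycolysis genes over 0 to 12, 0 to 20 and 0 to 15, the other targets over 0 to 13, 0 to 28 and 0 to 20, and the paralogs over 0 to 6, 0 to 12 and 0 to 8. In these fits the lone liver of a group is assumed to vary like the other groups. The median log2 fold change of the hypoxia-inducible genes ranged over 0.15 to 3.43 for intra-S versus sham and -0.18 to 3.36 for intra-S versus intra-C, with Car9 among 10 genes in all these fits but the one without intra-S liver 1. Over the 9 genes without Car9 the high ends were 3.15 and 3.37. Among the 9 genes without Car9, directions of 8 log2 fold changes depended on the liver left out. Car9, close to the counting limit, also changed direction in intra-C versus sham. Against sham, intra-S ranged over -0.051 to 3.15 for Bnip3, -0.81 to 1.90 for Egln3, -1.42 to 3.796 for Cited2 and -1.14 to 0.14 for Pdk1. Against intra-C it ranged over -0.49 to 3.67 for Adm, -0.25 to 1.04 for Pdk1, -0.62 to 4.60 for Cited2 and -0.24 to 0.15 for Hif1a. The low ends were without intra-S liver 1 and the high ends without intra-S liver 2, and Hif1a was also positive (0.065) without intra-C liver 1. The cause was not tested.

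Livers of the same number did not deviate together over all genes (correlations of -0.03, 0.08 and 0.04), and the main fit did not pair them. With 2 livers a group, this check cannot exclude a pairing that touches few genes. With the replicate block, 1 regulator, 9 glycolysis genes, 7 other targets and 2 paralogs were called in intra-S (9.21% of all genes), and 0 hypoxia-inducible genes, 0 regulators, 4 glycolysis genes, 3 other targets and 0 paralogs in intra-C (5.69%).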

Other observations

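Genes named here were chosen after their values were seen. Among all tested genes, others known to respond to low oxygen or stress were far higher in intra-S liver 1 than elsewhere. Hilpda, a lipid droplet protein gene and HIF target, was at 1.72 and 3.10 CPM in sham, 3.23 and 7.30 CPM in intra-C, 144 CPM in intra-S liver 1 and 5.08 CPM in intra-S liver 2. Ndufa4l2, a mitochondrial HIF target, had 28.7 CPM in intra-S liver 1 and at most 0.368 CPM in the other 5 livers. The stress cytokine gene Gdf15 had 37.2 CPM in intra-S liver 1 and at most 4.61 CPM in the others.

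Other genes went the opposite way. Saa2, an acute-phase gene of hepatocytes, was at 7.39 and 32.1 CPM in sham, 6063 and 10866 CPM in intra-C, 182 CPM in intra-S liver 1 and 5268 CPM in intra-S liver 2. The neutrophil chemoattractant gene Cxcl1 had 1.57 CPM in intra-S liver 1 and 191 CPM in intra-S liver 2, and S100a4 had 0.933 and 52.8 CPM. Over all tested genes, 512 were more than 4-fold higher in intra-S liver 1 and 805 more than 4-fold higher in intra-S liver 2.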
